A study of Mus musculus with 10 samples.

Results

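The squamous differentiation and desmosome genes described here are 10 genes chosen by name: Ivl, Sprr1a, Sprr3, Sbsn and Cnfn of the cornified envelope and upper squamous layers, the desmosome genes Dsg3, Dsc3 and Pkp1, and Lypd3 and Calml3, which are typical of suprabasal squamous cells. They were chosen with earlier results of these data known, so comparisons of them with all genes are descriptive. They are 10 of the 48897 rows in each of 2 mouse RNA-seq tables. The first table holds EpCAM+; CD45- epithelial cells sorted from the prostates of 3-month-old C57BL/6 mice, with 3 control libraries (A, B and C) and 3 libraries (A, B and C) whose genotype adds Arid1aPC-/-, a deletion by Cre under the Probasin promoter, which is active in prostate epithelium. The controls share the rest of that engineered genotype, so no wild-type prostate was compared. The second table holds Myc-CaP, a prostate cancer cell line of FVB origin, with 2 empty vector (EV) libraries and 2 libraries labelled Arid1a KO. Each knockout was compared with its own control within its table. The labels do not say whether the Myc-CaP libraries came from separate cultures, so p-values in that table measure only the spread between these libraries, which may be technical.

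Squamous epithelia protect surfaces by a sequence of steps. Basal cells rest on hemidesmosomes and express Krt5 and Krt14, suprabasal cells switch keratins and strengthen their desmosomes, and the outermost cells replace the membrane with a cornified envelope, a shell of involucrin, loricrin and small proline-rich proteins that transglutaminases crosslink. A desmosome joins neighbouring cells through desmoglein and desmocollin cadherins, which plakoglobin, plakophilins and desmoplakin tie to keratin filaments. The prostate is a glandular epithelium of luminal and basal cells, in which several of these genes are expressed at a low level and full cornification is not part of normal differentiation.

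Arid1a, the targeted gene, was examined first. Its level over the whole gene cannot settle whether the labels are right, since a knockout need not lower the reads from the rest of the gene. In the epithelium its level was 27.8, 21.9 and 26.5 RPKM (read counts divided by the length of the gene and by library depth) in controls A, B and C and 31.1, 28.8 and 30.8 RPKM in the libraries labelled Arid1a KO. All 3 libraries labelled Arid1a KO were thus above all 3 controls, by 0.25 ± 0.09 (SE) on the log2(RPKM + 1) scale with an adjusted p of 0.054, and the epithelial groups are therefore named by their labels throughout. In Myc-CaP, Arid1a was 60.5 and 61.0 TPM (a length-scaled unit that adds up to one total in each library) in the EV libraries against 39.5 and 40.3 TPM in the KO libraries, a log2 difference of -0.59 ± 0.06 (SE, adjusted p = 0.0102). Unless stated otherwise, a difference is KO minus control on the log2(value + 1) scale with its standard error, tested with limma on the genes whose mean over a table reached 0.5, and a gene was called at a Benjamini-Hochberg adjusted p under 0.05. The steps between low values gave a depth of about 28.8 to 36.3, in units of 1e+06 mapped reads, for the epithelial libraries, and the relative depth of the Myc-CaP libraries ranged from 0.867 to 1.

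In the sorted epithelium the members did not move together. Dsg3, Pkp1, Ivl and Lypd3 rose with the Arid1a KO label, and Dsc3, Sbsn and Calml3 fell. Sprr1a, the most abundant of the 10, was not called, and Sprr3 and Cnfn were near 0 in every library. Of the 8 members that passed the filter on low values, 4 were called higher and 3 lower, and in 8 the libraries of the groups did not overlap. Across all 16275 genes tested, 27.5% were called higher and 29.6% lower, and 66.7% had libraries that did not overlap. The median log2 difference was 0.26 over the 8 members tested and -0.028 over all genes tested.

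**Figure D1:**
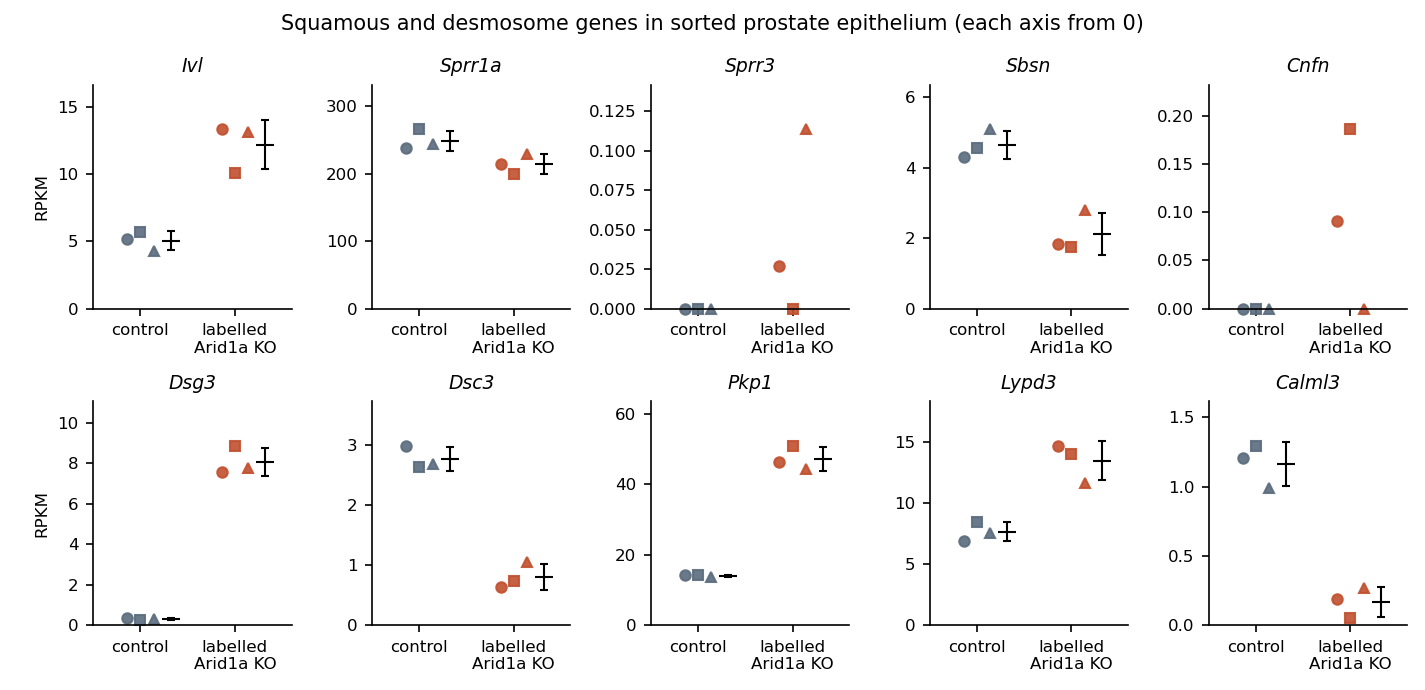
Level in RPKM of the 10 genes in each sorted epithelium library, with a panel and an axis from 0 for each gene. Circles, squares and triangles are libraries A, B and C, and black marks are the mean and SD of 3 libraries where no library is at 0 and the SD is below the mean. Dsg3 rises from 0.246 to 0.343 RPKM in the controls to 7.57 to 8.87 RPKM in the libraries labelled Arid1a KO, while Dsc3 falls from 2.63 to 2.99 RPKM to 0.642 to 1.05 RPKM.

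Among the cornified envelope genes, Ivl rose. Ivl encodes involucrin, an early scaffold of the envelope, and lies on chromosome 3 (92570902 to 92573735, minus strand, GRCm38). It measured 5.19, 5.68 and 4.27 RPKM in controls A, B and C and 13.3, 10.1 and 13.1 RPKM in the libraries labelled Arid1a KO. The lowest of the latter was above the highest control, and the mean went from 5.05 ± 0.72 to 12.2 ± 1.81 RPKM (SD, n = 3 each), a 2.41-fold ratio of means and a log2 difference of 1.12 ± 0.13 (SE, adjusted p = 0.000324).

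Sprr1a, a small proline-rich protein that is crosslinked into the envelope, lies 85 kb from Ivl on chromosome 3 (92483952 to 92485895). Its level was 237, 266 and 244 RPKM in the controls and 214, 199 and 229 RPKM in the libraries labelled Arid1a KO. Each of the latter was below each control, but the mean differed by only -0.22 ± 0.08 on the log2 scale (SE, adjusted p = 0.0526). Sprr1a was called lower when KO library C was left out (-0.27, adjusted p = 0.0424), and the difference was -0.04 (adjusted p = 0.645) after every library was rescaled to the same sum of RPKM. Sprr3, a small proline-rich protein abundant in oesophageal and oral epithelium, lies 25.2 kb from Sprr1a. It was listed at 0 in all 3 controls and in KO library B, and at 0.0269 and 0.114 RPKM in KO libraries A and C, which corresponds to about 1 and 4 reads. Neighbouring genes of this cluster were therefore read at levels that differed by more than their spread between libraries: Sprr1a at 199 RPKM or more, Ivl at 13.3 RPKM or less and Sprr3 near 0.

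Sbsn, which encodes suprabasin, a secreted protein of suprabasal keratinocytes, fell. It lies on chromosome 7 (30751471 to 30756134, plus strand) and measured 4.30, 4.55 and 5.09 RPKM in the controls and 1.82, 1.73 and 2.79 RPKM in the libraries labelled Arid1a KO. The groups did not overlap, and the log2 difference was -0.87 ± 0.14 (SE, adjusted p = 0.00134). Its exons share 279 of 3625 bases with Tmem147os on the same strand, and reads there could be assigned to either gene or to none. Cnfn, or cornifelin, an envelope component on chromosome 7 (25367620 to 25369724), was listed at 0 in the 3 controls and in KO library C. The other libraries labelled Arid1a KO gave 0.0909 and 0.186 RPKM, about 2 and 4 reads.

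The bases upstream of the RefSeq start were read for the members that the RefSeq promoter table on GRCm38.p6 holds, which were 6 of 10. The 250 bases before the start of Ivl, Sprr1a and Sprr3 are shown because these neighbours on chromosome 3 differed most in level, those of Sbsn because it fell, and those of Lypd3 because it was called in both systems. Each is written 5′ to 3′ on the strand of the gene. Capitals mark matches on either strand to TATAAA or to TGANTCA, an AP-1-like pattern in which N is any base.
Ivl (chr3:92573736-92573985, minus strand): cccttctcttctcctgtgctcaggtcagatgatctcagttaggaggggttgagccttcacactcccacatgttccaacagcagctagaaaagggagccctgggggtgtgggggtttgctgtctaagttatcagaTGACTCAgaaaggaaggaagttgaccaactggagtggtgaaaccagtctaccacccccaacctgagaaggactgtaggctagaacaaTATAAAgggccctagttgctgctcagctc
Sprr1a (chr3:92485882-92486131, minus strand): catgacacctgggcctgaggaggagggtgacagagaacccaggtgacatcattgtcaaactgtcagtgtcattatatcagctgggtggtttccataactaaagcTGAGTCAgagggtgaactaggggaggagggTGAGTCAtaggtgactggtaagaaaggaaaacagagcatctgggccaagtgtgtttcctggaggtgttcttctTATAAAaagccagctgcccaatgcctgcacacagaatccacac
Sprr3 (chr3:92458721-92458970, minus strand): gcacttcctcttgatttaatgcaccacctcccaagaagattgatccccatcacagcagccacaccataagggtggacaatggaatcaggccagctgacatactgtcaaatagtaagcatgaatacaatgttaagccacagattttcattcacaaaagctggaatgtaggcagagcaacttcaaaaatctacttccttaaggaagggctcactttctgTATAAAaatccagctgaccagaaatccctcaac
Sbsn (chr7:30751221-30751470, plus strand): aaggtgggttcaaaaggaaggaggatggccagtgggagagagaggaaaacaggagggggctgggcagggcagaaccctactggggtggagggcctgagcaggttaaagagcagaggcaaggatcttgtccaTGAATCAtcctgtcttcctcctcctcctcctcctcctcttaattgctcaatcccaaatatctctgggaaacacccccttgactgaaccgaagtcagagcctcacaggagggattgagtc
Lypd3 (chr7:24636320-24636569, plus strand): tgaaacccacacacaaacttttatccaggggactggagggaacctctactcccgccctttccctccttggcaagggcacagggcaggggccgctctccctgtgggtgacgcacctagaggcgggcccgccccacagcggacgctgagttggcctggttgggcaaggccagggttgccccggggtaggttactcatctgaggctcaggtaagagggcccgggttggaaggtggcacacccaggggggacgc

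The AP-1 sites TGACTCA and TGAGTCA, bound by Fos and Jun dimers, are well known in envelope genes. The pattern searched, TGANTCA, is looser because it allows any middle base, and it was found in 3 of the 6 windows. It began 116 bases before the start in Ivl, 146 and 116 bases before it in Sprr1a, and 119 bases before it in Sbsn. The letters found were TGACTCA in Ivl, TGAGTCA at both places in Sprr1a and TGAATCA in Sbsn. TATAAA was found in 3 windows, 29 bases before the start in Ivl, 43 bases in Sprr1a and 33 bases in Sprr3. Among 32851 windows of the same length in the table, 6.75% held TGANTCA and 12.4% held TATAAA. The grainyhead-like motif AACCNGTT, read by factors of barrier epithelia, was in none of the 6 windows and in 1.79% of all windows. The 3 windows with TGANTCA therefore belonged to a gene that rose, a gene that was not called and a gene that fell. The gene that fell, Sbsn, held neither TGACTCA nor TGAGTCA, so its match counts only under the looser pattern. The 2 motifs do not overlap in any window shown, and a match is a run of letters and not a measured binding site.

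Among the members, the desmosome genes held the largest rise (Dsg3) and, on the log2(RPKM + 1) scale, the largest fall (Dsc3). Dsg3, the desmoglein of basal and lower suprabasal squamous layers and the main pemphigus vulgaris antigen, lies on chromosome 18 (20510274 to 20547459, plus strand). Its level was 0.343, 0.246 and 0.279 RPKM in the controls, about 71, 62 and 61 reads, and 7.57, 8.87 and 7.78 RPKM in the libraries labelled Arid1a KO, about 1609, 1845 and 1563 reads. Every library labelled Arid1a KO was far above every control, and the ratio of means was 27.9-fold. The log2(RPKM + 1) difference was 2.81 ± 0.09 (SE, adjusted p = 2.26e-06), which understates the ratio because the pseudocount of 1 exceeds the control level. With a pseudocount of 0.1 it was 4.40.

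Dsc3, the desmocollin usually paired with Dsg3 in basal cells of stratified epithelia, changed in the opposite direction. It lies 508 kb from Dsg3 in the same cadherin cluster (19960930 to 20002351, minus strand). It measured 2.99, 2.63 and 2.69 RPKM in the controls and 0.642, 0.729 and 1.05 RPKM in the libraries labelled Arid1a KO. The groups were well apart, with a control mean 3.43-fold above the KO mean and a log2 difference of -1.07 ± 0.11 (SE, adjusted p = 0.000188). Pkp1, a plakophilin that links desmoplakin to the cadherins and is typical of squamous desmosomes, lies on chromosome 1 (135871395 to 135919207) and rose from 14.3, 14.1 and 13.7 RPKM to 46.5, 51.0 and 44.2 RPKM. Its KO libraries all exceeded 44 RPKM, with a 3.36-fold ratio of means and a log2 difference of 1.68 ± 0.07 (SE, adjusted p = 5.64e-06).

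The other desmosome genes were read against these. Dsc2, the desmocollin of simple and stratified epithelia, rose from 5.96 to 6.37 RPKM in the controls to 14.5 to 16.1 RPKM (log2 difference 1.18 ± 0.07 SE, adjusted p = 1.91e-05). Dsg2, the widely expressed desmoglein, rose by 0.43 ± 0.12 (SE, adjusted p = 0.0156). Because RPKM is scaled by gene length, levels of paralogues can be set side by side. Dsg3 amounted to 2.55, 2.56 and 2.30% of Dsg2 in the controls and to 48.9, 58.0 and 44.9% in the libraries labelled Arid1a KO. Dsc3 amounted to 48.5, 41.3 and 45.1% of Dsc2 in the controls and to 4.22, 4.52 and 7.26% in the libraries labelled Arid1a KO. The relative levels within the desmogleins and within the desmocollins thus moved in opposite directions, toward Dsg3 in the former and away from Dsc3 in the latter.

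**Figure D2:**
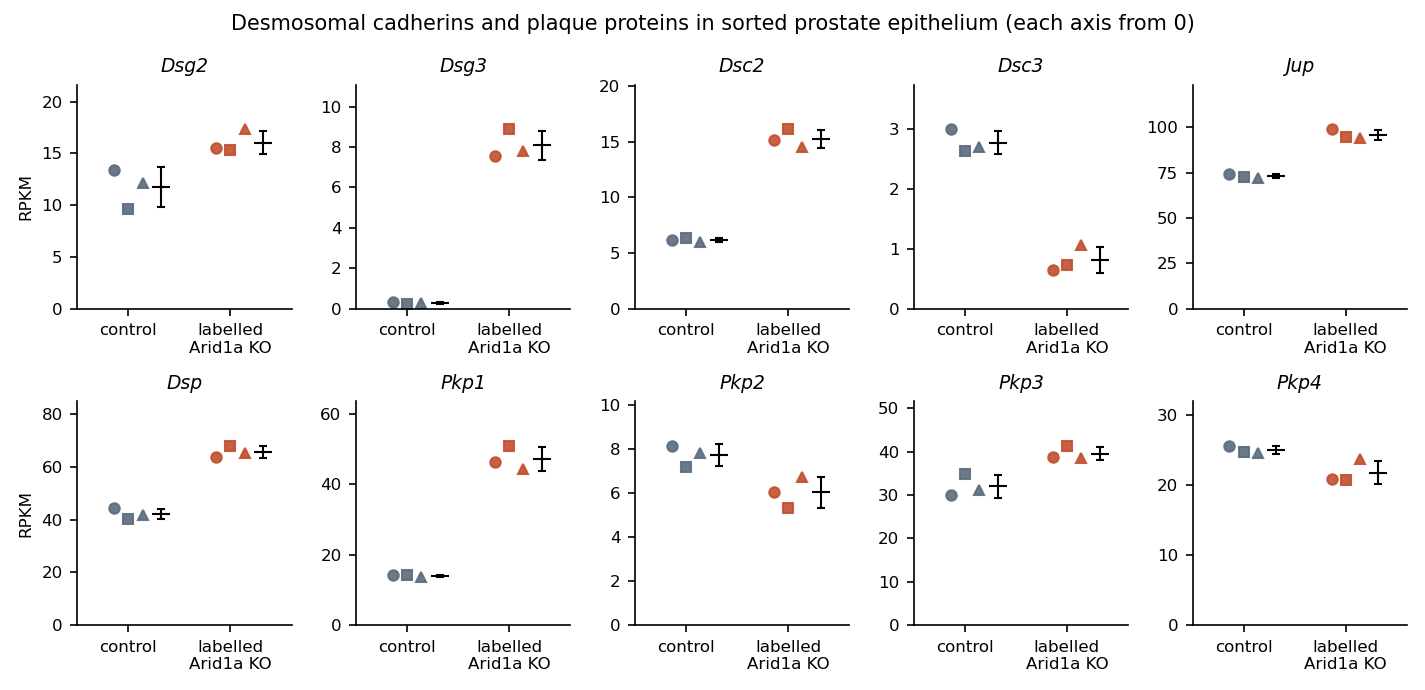
Level in RPKM of desmosomal cadherins and plaque proteins in the sorted epithelium, each panel with an axis from 0. Circles, squares and triangles are libraries A, B and C, and black marks are the mean and SD of 3 libraries. Dsg3 and Pkp1 rise most, Dsc3 is the only one of the 4 cadherins shown that falls, and Pkp2 and Pkp4 fall slightly.

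Of the 13 desmosome genes that are not members, 8 were tested, 5 were called higher and 2 lower. The plaque proteins Dsp (desmoplakin, 0.63 ± 0.06 SE, adjusted p = 0.000177) and Jup (plakoglobin, 0.39 ± 0.06 SE, adjusted p = 0.000977) rose, and Pkp3, named here after its values were seen, was the fifth gene called higher (0.30, adjusted p = 0.0103). The plakophilins Pkp2 and Pkp4 were called lower, by 0.31 and 0.19 on the log2 scale (adjusted p = 0.0215 and 0.0462). Neither was called once the sums were made equal (-0.16 and -0.02, adjusted p = 0.218 and 0.825). At least 1 of them lost its call when any library other than KO library C was left out. Pkp1 was 47.8, 40.4 and 44.0% of Pkp3 in the controls and 120, 123 and 115% in the libraries labelled Arid1a KO, so the order of these plakophilins was reversed in all 3 libraries. Dsg1a and Dsg1b, the desmogleins of cornifying layers, were listed at 0 in all 6 libraries. Their paralogue Dsg1c was below the filter and not tested, at 0.471, 0.438 and 0.604 RPKM in the controls and 0.0643, 0.0739 and 0.102 RPKM in the libraries labelled Arid1a KO, so its groups did not overlap. These 3 were also named after their values were seen.

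Lypd3, a GPI-anchored surface protein of suprabasal squamous cells also known as C4.4A, lies on chromosome 7 (24636550 to 24641118, plus strand). It measured 6.92, 8.47 and 7.54 RPKM in the controls and 14.7, 14.1 and 11.7 RPKM in the libraries labelled Arid1a KO. The groups did not overlap, and the log2 difference was 0.74 ± 0.10 (SE, adjusted p = 0.000846), a 1.76-fold ratio of means. Calml3, an epithelial calmodulin-like protein, lies on chromosome 13 (3802896 to 3804316, minus strand) and fell from 1.21, 1.29 and 0.990 RPKM (about 51, 67 and 44 reads) to 0.184, 0.0471 and 0.268 RPKM (about 8, 2 and 11 reads). The control mean was 6.99 times the KO mean, and the log2(RPKM + 1) difference was -0.89 ± 0.11 (SE, adjusted p = 0.000457). The general calmodulins, which are far more abundant, moved less: Calm2 and Calm3 fell by 0.45 and 0.21 (adjusted p = 0.00171 and 0.0278). Calm3 was no longer called once the sums were made equal (-0.03, adjusted p = 0.641), nor without any 1 of control library C and the libraries labelled Arid1a KO.

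The members called lower were highest, among the libraries labelled Arid1a KO, in library C in 3 of 3 genes. Leaving out that library or any other kept all 7 calls. Rescaling all libraries to the same sum, which shifts the median log2 difference of all genes from -0.028 to 0.111 and the share of calls that are higher from 48.1% to 64.9%, also kept all 7 calls and their directions.

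Few of these genes were expressed in Myc-CaP. Of the 10 members, only Lypd3 and Sbsn passed the filter, and Lypd3 was called higher in the KO libraries. For comparison, 4.54% of the 13974 genes tested were called higher and 1.89% lower, and 51.5% had libraries that did not overlap. Lypd3 measured 1.82 and 1.75 TPM in the EV libraries, about 26 and 22 reads, and 6.54 and 7.83 TPM in the KO libraries, about 89 and 98 reads. Both KO libraries were above both EV libraries, by a 4.02-fold ratio of means and 1.55 ± 0.14 on the log2 scale (SE, adjusted p = 0.00869). The call was lost when any 1 of the 4 libraries was left out (log2 difference 1.44 to 1.67, adjusted p 0.0803 to 0.0896) and when no filter was applied (adjusted p = 0.0524). Lypd3 shares 225 of 1649 exon bases with Gm26550 on the other strand, and the study's methods state that reads were counted by strand.

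Sbsn was expressed at a like level in the 4 Myc-CaP libraries, 5.14 and 4.47 TPM with EV and 4.04 and 4.48 TPM with KO. The groups overlapped, and the log2 difference was -0.14 ± 0.13 (SE, adjusted p = 0.603). Whether the change of Sbsn or Lypd3 differed between the systems was not tested, because the tables were normalized separately.

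**Figure D3:**
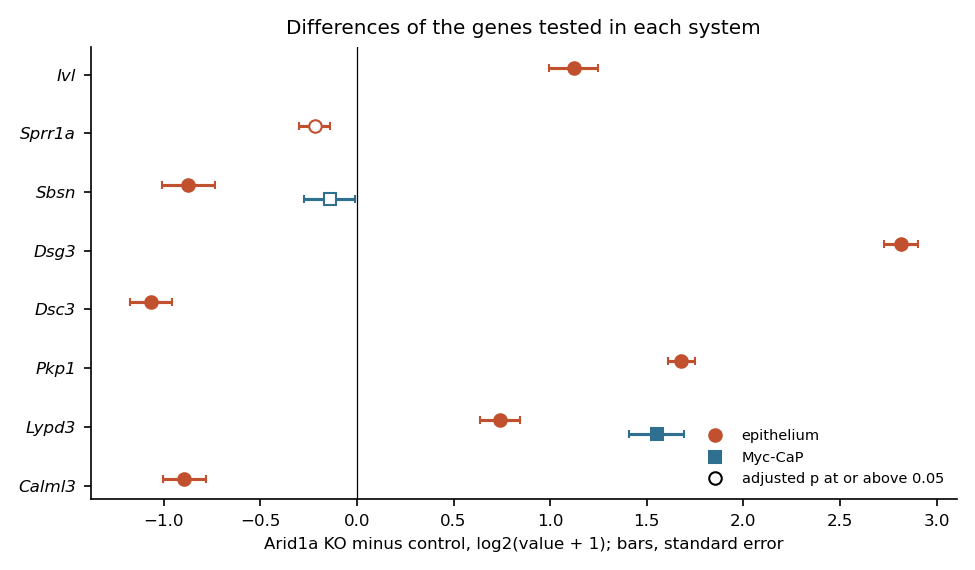
Difference between KO and control on the log2(value + 1) scale for each gene that was tested, with its standard error. Circles are the sorted epithelium (3 against 3 libraries), squares are Myc-CaP (2 against 2), and open symbols have an adjusted p of 0.05 or above. Lypd3 lies above 0 in both systems, at 0.74 and 1.55, and 6 of the 8 genes tested in the epithelium were not tested in Myc-CaP.

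The remaining members were at or near 0 in Myc-CaP. Ivl and Sprr3 were listed at 0 in all 4 libraries. Sprr1a was listed at 0 in both EV libraries and at 0.306 and 0.166 TPM in the KO libraries, about 2 reads and 1 read. Cnfn showed the converse, with 0.315 and 0.717 TPM in the EV libraries, about 2 and 4 reads, and 0 in both KO libraries. Calml3 gave 0.32 and 0 TPM with EV and 0.0848 and 0.0922 TPM with KO. These values rest on 4 reads or fewer in a library.

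The desmosome members were highest in KO library 2, and only Pkp1 was also seen in the other libraries. Dsg3 was 0.413 TPM in KO library 2, about 22 reads, and listed at 0 in the other 3 libraries. Dsc3 was likewise 0.144 TPM in KO library 2, about 6 reads, and 0 elsewhere. Pkp1 gave 0.0244 and 0.222 TPM in EV libraries 1 and 2 and 0.0259 and 0.563 TPM in KO libraries 1 and 2. The basal keratin Krt5, 1.98 TPM in KO library 2 and 0 in the others, and Krt14, 6.04 TPM there and 0.774 TPM at most elsewhere, were likewise highest in KO library 2. Both were named after their values were seen. Of 20 squamous, junction, keratin and epithelial marker genes that were above 0 with a mean under 0.5 TPM, 13 were highest in KO library 2. The part of that library in these values was not tested.

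**Figure D4:**
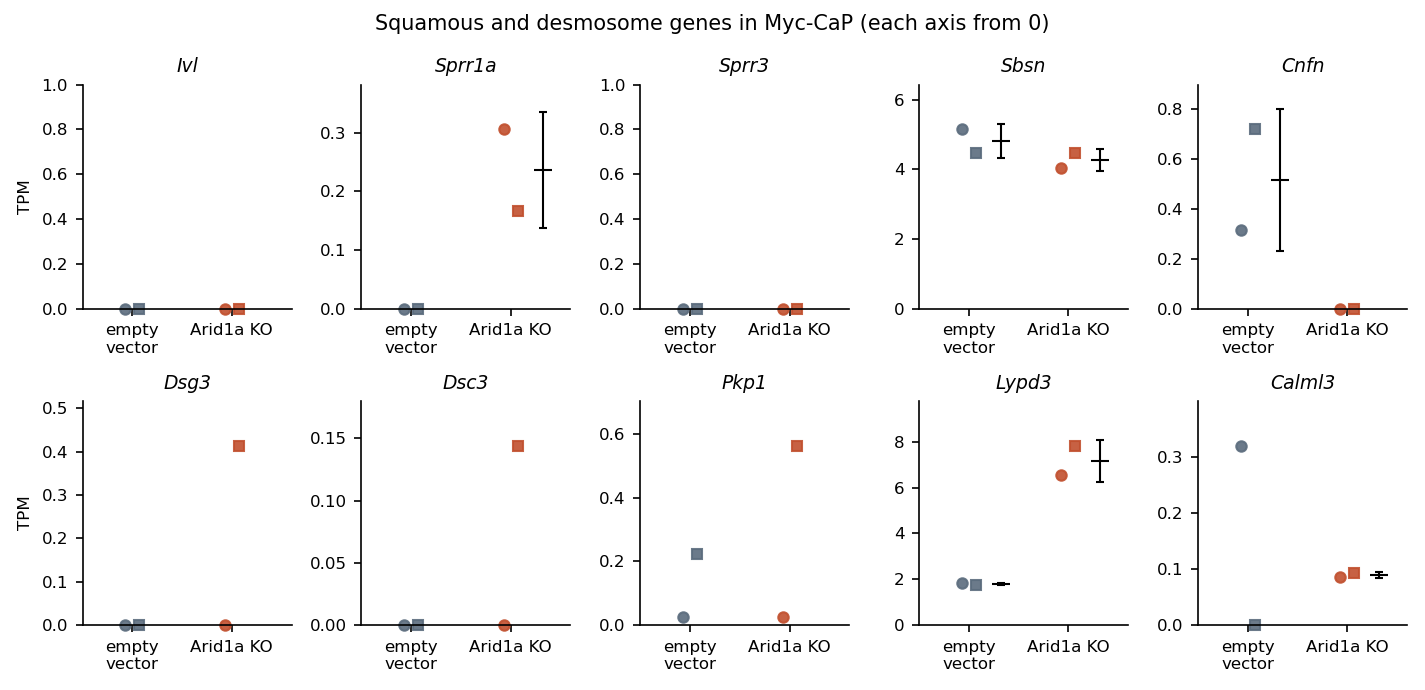
Level in TPM of the 10 genes in each Myc-CaP library, each panel with an axis from 0. Circles and squares are libraries 1 and 2, and black marks are the mean and SD of 2 libraries where no library is at 0 and the SD is below the mean. Lypd3 is separated by group, Sbsn overlaps, and Dsg3, Dsc3 and Pkp1 are highest in KO library 2.

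The wider squamous programme was read from lists that were also chosen with earlier results of these data known. They hold 141 genes that are not members. In the epithelium 79 of them were tested, 38 were called higher and 17 lower, against 27.5% and 29.6% of all genes, and their median log2 difference was 0.30 against -0.028 over all genes. The medians were -0.09 for the epidermal differentiation complex, 0.09 for other envelope and barrier genes, 0.34 for the desmosome, 0.56 for the hemidesmosome, 0.20 for squamous regulators and -0.21 for the calmodulins. The epidermal differentiation complex is the cluster on chromosome 3 (92080271 to 93471980) that holds Ivl and the Sprr genes. Of its other 45 genes, 16 were listed at 0 in all 6 libraries and only 7 passed the filter. By limma 0 were called higher, also at an unadjusted p under 0.05. Without a filter 2 were called higher, Sprr2d and Crnn, both at most about 1.01 RPKM in any library and named after their values were seen. Lor (loricrin, the main envelope protein of skin) fell from 4.94 to 6.93 RPKM to 1.22 to 2.09 RPKM (-1.36 ± 0.16 SE, adjusted p = 0.000392). The late cornified envelope gene Lce6a fell by 1.05 and Sprr2a1 by 0.74 (adjusted p = 0.00208 and 0.015). Sprr2a1 is close in sequence to Sprr2a2 and Sprr2a3, so its reads are uncertain. With the filter and all 6 libraries, Ivl was the only gene of this complex called higher. When KO library B was left out 1 of the other 45 genes was also called higher, Sprr2f, named after its values were seen.

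Of the 27 other envelope and barrier genes, 11 were tested, 5 were called higher and 3 lower. The transglutaminases Tgm1 and Tgm5, which crosslink the envelope, rose by 1.90 ± 0.13 and 1.06 ± 0.13 (SE, adjusted p = 4.74e-05 and 0.000481). Tgm1 went from 1.69 to 2.40 RPKM in the controls to 8.78 to 12.0 RPKM. The envelope scaffold genes Scel (sciellin, 1.62) and Ppl (periplakin, 0.86) also rose (adjusted p = 0.000147 and 0.000143). Krtdap, a keratinocyte differentiation peptide that lies 31.8 kb from Sbsn, fell from 1.90 to 2.22 RPKM to 0.0736 to 0.305 RPKM (-1.36 ± 0.10 SE, adjusted p = 6.44e-05), and Cers3, the ceramide synthase of the epidermal barrier, fell by 0.64 (adjusted p = 0.00115). Dmkn (dermokine), named after its values were seen, lies 7.62 kb from Sbsn and was not called (0.09, adjusted p = 0.458).

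The keratins of stratified epithelia had the highest median log2 difference of the lists, 1.34. Of 11, all were tested by limma, 7 were called higher and 0 lower. At an unadjusted p under 0.05 there were 8 higher and 1 lower, Krt15 (-0.37, adjusted p = 0.0638). Krt13, the suprabasal keratin of non-cornifying squamous epithelia, rose from 9.88, 16.2 and 11.9 RPKM to 483, 525 and 352 RPKM (5.06 ± 0.20 SE, adjusted p = 5.06e-06). The basal keratin Krt14 rose by 2.45, and Krt16 and Krt6a, keratins of activated keratinocytes, rose by 2.35 and 1.51 (adjusted p between 1.23e-05 and 3.3e-05). The epidermal suprabasal keratins Krt1 and Krt10, named after their values were seen, stayed under 3 RPKM in every library and were not called (0.05 and -0.16, adjusted p = 0.84 and 0.501). The keratins called therefore included markers of non-cornifying layers and of activated keratinocytes but neither of the epidermal pair.

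Hemidesmosome genes were higher in 6 of 9 and lower in 1. Itgb4 and Itga6, the integrin pair that binds laminin-332, rose by 1.48 and 1.17 (adjusted p = 9.64e-06 and 4.66e-05), and the laminin-332 chain Lama3 rose by 1.18 (adjusted p = 1.91e-05). The tetraspanin Cd151 fell by 0.50 (adjusted p = 0.000654). Of 31 regulators of squamous differentiation, 30 were tested, 14 were called higher and 6 lower. Grhl3, Zfp750 and Prdm1, transcription factors of terminal keratinocyte differentiation, rose by 1.49, 1.29 and 1.96, and Pitx1 rose by 1.35 (adjusted p between 1.75e-05 and 6.73e-05). Elf5 fell from 15.3 to 19.4 RPKM to 1.98 to 3.94 RPKM (-2.33 ± 0.20 SE, adjusted p = 0.000101), and Tfap2c, Gata3 and the Notch ligand Jag2 fell by 1.5, 0.81 and 0.57 (adjusted p between 5.73e-05 and 0.00148). The other Notch genes of the list, Jag1, Notch1, Notch2 and Notch3, were called higher (0.43 to 1.16, adjusted p between 8.67e-05 and 0.00596). These were named after their values were seen. Trp63, the master factor of basal and squamous cells, also named after its values were seen, was not called (-0.24, adjusted p = 0.0962).

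**Figure D5:**
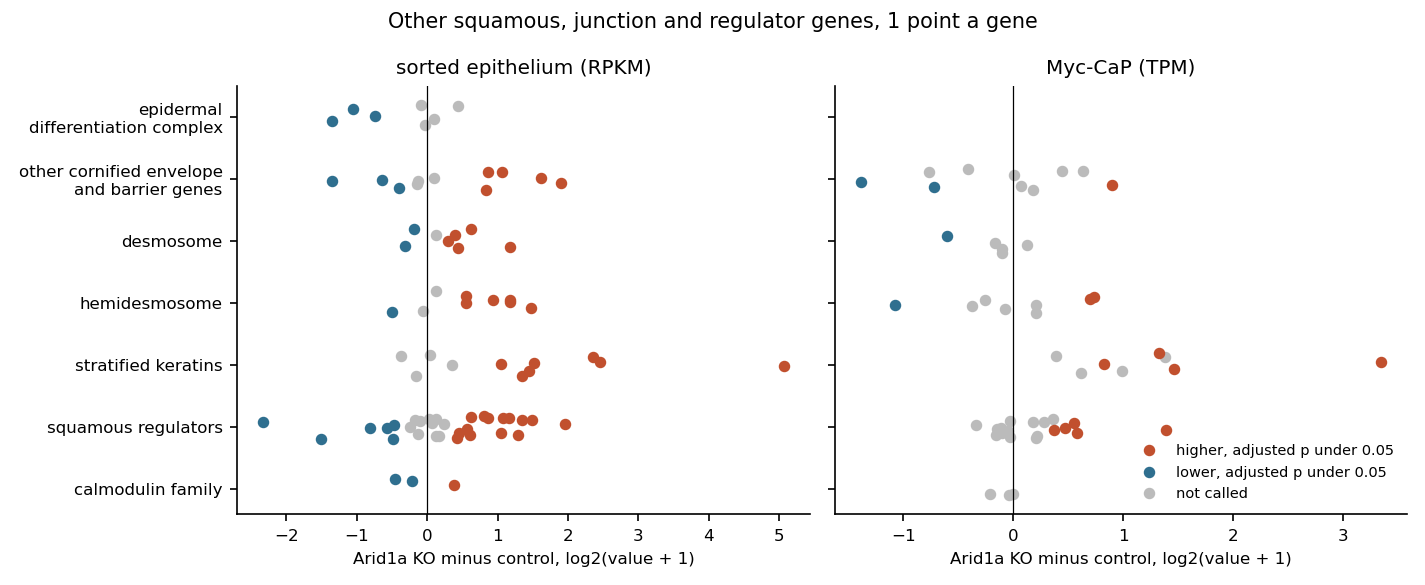
Difference between KO and control on the log2(value + 1) scale for every tested gene of the wider lists, members left out, with 1 point a gene. Points are spread vertically within a list only for legibility. In the epithelium all 7 keratins called, 6 of 7 hemidesmosome genes called and 5 of 7 desmosome genes called lie above 0, whereas all 3 called genes of the epidermal differentiation complex lie below 0, and in Myc-CaP no gene of that complex was tested.

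In Myc-CaP, 52 of the 141 genes were tested, 12 were called higher and 4 lower, against 4.54% and 1.89% of all genes. Of the 45 other genes of the epidermal differentiation complex, 43 were listed at 0 in all 4 libraries. The median log2 difference of those tested was 0.15, against -0.014 over all genes. Keratins had a median of 1.16 and 4 of 8 tested were called higher. Krt4, a partner of Krt13, rose from 3.10 and 3.83 TPM to 41.3 and 47.2 TPM (3.34 ± 0.13 SE, adjusted p = 0.00145), and Krt15, Krt16 and Krt6a rose by 1.46, 1.32 and 0.82 (adjusted p between 0.00583 and 0.0273). Among regulators, Zfp750, Grhl1, Notch2 and Gata3 rose by 1.39, 0.58, 0.55 and 0.47 (adjusted p between 0.0143 and 0.0497). Cdsn, the corneodesmosin of cornified cell junctions, rose by 0.90 and the kallikreins Klk11 and Klk10 fell by 1.38 and 0.72 (adjusted p between 0.0117 and 0.0308). When any 1 library was left out, Krt4 was the only list gene called.

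The desmosome in Myc-CaP lacked its usual epithelial cadherins. Dsc2 was listed at 0 in all 4 libraries, and Dsg2 in 3 of them with 0.0456 TPM in KO library 2. Both were named after their values were seen. Pkp2, the plakophilin of simple epithelia, was 107 TPM in both EV libraries and 68.0 and 72.7 TPM in the KO libraries (-0.60 ± 0.06 SE, adjusted p = 0.0109), and it was the only gene called among the 5 tested from that list. Of the hemidesmosome list, 8 genes were tested, 2 were called higher and 1 lower. Those called higher were Lama3 and Lamb3, which rose by 0.74 and 0.70 (adjusted p = 0.0294 and 0.0382).

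Markers of some other cells differed between the groups in the epithelium, while the summed levels of neutrophil, fibroblast and urothelium markers overlapped. Summed levels of 6 prostate basal markers were 1361 to 1915 RPKM in the controls and 2370 to 2648 RPKM in the libraries labelled Arid1a KO, with 3 of 6 called higher. Those called were Krt5, Krt14 and Itga6, which the keratin and hemidesmosome lists above also hold. The other basal markers were not called, among them Krt15 (-0.37, adjusted p = 0.0638) and Trp63 (-0.24, adjusted p = 0.0962). These markers were named here after their values were seen. Summed levels of 7 luminal markers were 1651 to 2053 RPKM against 1407 to 1505 RPKM, with 5 of 7 called lower. All 8 seminal vesicle genes were lower, 19464 to 21979 RPKM in sum against 647 to 1632 RPKM, and all 7 macrophage markers were higher, 1964 to 2294 RPKM against 3674 to 4224 RPKM. Leukocyte markers summed to 769 to 791 RPKM against 906 to 992 RPKM, with 5 of 6 higher and 1 lower. Neutrophil markers summed to 330 to 467 RPKM against 369 to 612 RPKM, with 2 of 5 tested called higher. Fibroblast markers summed to 1683 to 2456 RPKM against 1401 to 1971 RPKM, with 3 of 6 called lower. Across all genes tested, 27.5% were called higher and 29.6% lower, so a count near these shares does not set a list of markers apart.

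Urothelium markers, of which 2 were called higher and 4 lower, summed to 106 to 132 RPKM in the controls and 72.4 to 120 RPKM in the libraries labelled Arid1a KO. The 6 epidermis markers summed to 7.51 to 11.3 RPKM against 4.06 to 6.07 RPKM, and Flg2 was at 0 in every library. Of these markers 3 were tested, and only Lor was called, lower. Its mean was 6.11 RPKM in the controls and 1.79 RPKM in the libraries labelled Arid1a KO, while Krt1 and Krt10 were not called. Summed levels of 7 epithelial markers, the label of the sort, were 4744 to 6303 RPKM against 4012 to 4406 RPKM, with 3 called lower. In bulk libraries, fewer cells of a type cannot be told apart from less RNA per cell, and the part of these cells in the changes of the members was not tested.

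In Myc-CaP the defining epithelial marker Epcam was nearly absent. It was listed at 0 in 3 of 4 libraries and at 0.128 TPM in KO library 2, and 7 epithelial markers summed to 1.21 to 1.88 TPM with EV and 45.1 TPM in both KO libraries. Of these, 2 were tested and both rose: Krt8 from 1.07 and 0.79 TPM to 40.3 and 38.8 TPM (4.40 ± 0.12 SE, adjusted p = 0.00135), and Krt19 from 0.322 and 0.0916 TPM to 3.67 and 3.25 TPM (1.89 ± 0.20 SE, adjusted p = 0.0117). Both were named after their values were seen. Of 7 luminal markers, which also include Krt8, 3 were tested and 2 were called higher, while Pbsn was at 0 in all 4 libraries. Basal markers summed to 44.7 to 47.8 TPM with EV and 45.0 to 55.2 TPM with KO, with 1 of 3 tested called higher. Most of this sum was Itga6, at 44.0 and 47.1 TPM with EV and 41.4 and 45.1 TPM with KO. Itga6 was named here after its values were seen. The epidermis markers Krt1, Lor, Flg and Flg2 and the urothelium markers Upk2, Upk3a and Krt20 were at 0 in all 4 libraries. Seminal vesicle markers summed to 0.259 TPM at most, leukocyte markers to 5.49 TPM, macrophage markers to 2.92 TPM and neutrophil markers to 0.435 TPM at most. Fibroblast markers summed to 7.07 to 37.3 TPM with EV and 5.89 to 16.5 TPM with KO, with 0 of 4 tested called by limma and 1 lower at an unadjusted p under 0.05. Col1a1, named after its values were seen, was 0.212 and 19.4 TPM in EV libraries 1 and 2 and 0.347 and 7.45 TPM in KO libraries 1 and 2, so the high values were in library 2 of each group.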

How the data were processed

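RNA-seq of 6 sorted epithelium and 4 Myc-CaP libraries was analysed. Per the study's methods, alignment by the authors was to GRCm38/mm10 with TopHat2 and counting by strand with HTSeq-count, whereas the submitters' processing notes name HISAT2, HTSeq and DESeq2. The authors deposited RPKM for the epithelium and TPM for Myc-CaP; the gene lengths behind either unit are not given in the sources used here. Groups came from the genotype labels. Reads per gene are estimates from the size of 1-read steps and GENCODE M21 exon lengths, so no counting interval is given, and TPM keeps no absolute depth.

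Each table was fitted alone with limma 3.58.1 (lmFit, eBayes with trend, R 4.3.3) on log2(value + 1) for genes with a mean of at least 0.5, two-sided, with Benjamini-Hochberg adjustment over all genes tested and a threshold of 0.05. The fit was also run on simulated data with independent noise and known changes in genes of higher level. That setting is simpler than these data, and no result here rests on it. No count model was used, since neither unit is a count. Members and lists were chosen with earlier results of these data known. From each list the called genes without overlap were named, at most 4 in each direction, with the exceptions stated. Some single genes and 1 element of the shared genotype are not reported here, while counts and sums over lists cover all their genes. Promoter windows came from RefSeq on GRCm38.p6 and gene coordinates from GENCODE M21. Alternatives were a pseudocount of 0.1, no filter, a minimum mean of 5, rescaling to the same sum, quantile normalization, no trend, the study's thresholds (unadjusted p under 0.05 and at least 1.5-fold), a replicate block and leaving out each library. The letters shared by the epithelial labels were not used as pairs in the main fit. With 3 libraries against 3, the correlations of same-lettered libraries cannot settle whether they were paired.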

Additional observations from a re-analysis of the deposited data

Results flagged for a closer look

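Some genes had every KO library on one side of the controls in the epithelium and on the other side in Myc-CaP, and the difference between the systems was not tested. The only member among them was Sprr1a, at -0.22 on the log2 scale in the epithelium (not called) and a mean of 0.236 TPM in the Myc-CaP KO libraries, which rests on about 2 reads and 1 read.

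Opposite directions were both called for Gata3 (-0.81 in the epithelium and 0.47 in Myc-CaP). Tgm1 and Scel, at 1.90 and 1.62 in the epithelium, were too low to be tested in Myc-CaP, with KO means of 0.039 and 0.307 TPM. Krt15 differed by -0.37 in the epithelium, where it was not called, and by 1.46 in Myc-CaP, where it was. Cdsn was not tested in the epithelium, with a mean of 0.13 RPKM in the libraries labelled Arid1a KO, and rose by 0.90 in Myc-CaP.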

How the results depend on the processing

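All 7 members called in the epithelium were called in the same direction in every one of the alternatives that tested them. A minimum mean of 5 RPKM left Dsg3, Dsc3, Sbsn and Calml3 untested, so 1 member was called lower, Sprr1a. The numbers called stayed at 4 higher and 3 to 4 lower when single libraries were left out. The list genes called lower in the epithelium, 17, became 8 at the study's thresholds, and the list genes ranged from 38 to 41 higher and from 13 to 16 lower without single libraries.

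In Myc-CaP the single member called, Lypd3, was not called without a filter (0 members, and 5 list genes higher and 2 lower), and no member passed a minimum mean of 5 TPM. Without single libraries 0 members were called by limma, with 1 list gene higher and 0 lower, against 1 member and 13 to 17 list genes higher and 7 to 9 lower at an unadjusted p under 0.05. A lone library is there assumed to vary like the other group. List genes called lower became 2 without the trend. The replicate block gave 10 list genes lower in Myc-CaP in place of 4, with 1453 genes higher and 1318 lower over the whole table in place of 635 and 264. Same-numbered Myc-CaP libraries deviated together with a correlation of 0.195, but 2 pairs that share only a number do not establish pairing. In the epithelium the correlations were 0.041, 0.009 and -0.057, and with the replicate block Dsg3 differed by 2.81. Over all genes, the calls higher and lower went from 4471 and 4823 to 1917 and 2120 at the study's thresholds in the epithelium, and from 635 and 264 in Myc-CaP to 284 and 74 without a filter, 359 and 92 without the trend, and 37 to 66 and 7 to 10 without single libraries. The cause was not tested. Members at a few reads cannot be compared at this depth.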
